A study of Mus musculus with 18 samples.

Results

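The genes described here encode mitochondrial ribosomal proteins. They were taken as every gene whose symbol in the platform annotation begins with Mrpl or Mrps followed by a digit and that has a probe set naming it alone, and each was read from its brightest such probe set. Mrpl53, whose only probe set also names Ccdc142, was left out for that reason. The rule found 77 of 19938 genes on the array, 48 named for the large ribosomal subunit and 29 named for the small one. They were measured on 18 mouse whole-transcript arrays from Affymetrix, with 3 arrays in each of 6 groups. The soleus KO and quadriceps KO groups came from mice with floxed EglN1 and a Cre recombinase of skeletal muscle. The soleus WT and quadriceps WT groups came from mice that carried the same Cre and no floxed locus. KO and WT mice alike received tamoxifen for 3 days before harvest. The heart FG4497 group came from EglN1 wild-type mice that received FG-4497, an inhibitor of the EglN enzymes, at 50 mg/kg intraperitoneally, and the heart control group from EglN1 wild-type mice that received vehicle. The animals had been back-crossed to the C57BL/6 strain and ate chow freely. Age, sex and the interval between the FG-4497 injection and harvest are not in the labels, the promoter that drives Cre is not named, and Cre acts in muscle fibres while the RNA is that of the whole muscle. The series title speaks of smooth muscle, whereas every array is labelled as skeletal muscle or heart.

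The mitochondrial ribosome translates the small set of proteins encoded by mitochondrial DNA, which are all subunits of the respiratory chain and ATP synthase. Its ribosomal RNAs come from mitochondrial DNA, and its proteins are encoded in the nucleus, translated in the cytosol and imported. Oxidative tissues such as heart and slow muscle are rich in mitochondria. EglN1 is a prolyl hydroxylase that marks hypoxia-inducible factor (HIF) for degradation when oxygen is present. Some symbols are older than the structures of the ribosome: the products of Mrps18a and Mrps30 were placed in the large subunit by structural work, and that of Mrps36 is a component of the 2-oxoglutarate dehydrogenase complex. They were kept under the rule.

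Promoter sequence was available for 68 of the 77 genes, in 74 windows of 300 bases around RefSeq start sites on the GRCm38.p6 build, and 9 genes had no entry. The windows were searched on both strands for TGCGCA, the core of sites for the factor NRF1, for CCGGAAG, an ETS motif that GABP binds, and for ATGGCGG, a YY1 motif, all of which are factors known to act on nuclear genes of mitochondria. TGCGCA lay in 22 of 74 windows (29.7%), against 7.76% of all 32851 windows and 13.1% of the windows of genes tested in the muscle fit. CCGGAAG lay in 25 windows (33.8%), against 8.86% of all windows and 16.2% of those of tested genes. ATGGCGG lay in 12 windows (16.2%), against 4.05% and 7.64%. At least 1 of these was present in 46 windows (62.2%), against 18.1% of all windows and 31.5% of those of tested genes. GCGTG and ACGTG, the letters at the core of HIF sites, lay in 56.8% and 25.7% of the windows, against 49.3% and 25.2% of the windows of tested genes, and CACGTG, the E-box, lay in 9.46%, against 9.93%. ACGTG lies within CACGTG, so these counts overlap. The GC content was 59% in these windows and 60.8% in those of tested genes. A match describes the letters in the window and does not show a bound site.

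The 250 bases before the start site are shown for 4 genes. Mrpl14 and Mrpl47 were the members with the largest excess in soleus over quadriceps, and Mrpl23 the one with the largest deficit there. Mrps18a was chosen because its window holds letters of several factors. It also lay lower in both KO muscles and had the smallest p of the members when both were averaged. Capitals mark the matches on either strand: the GCGTG core of HIF sites, written CACGC where it lies on the opposite strand, the ACGTG core, written CACGT where opposite, the NRF1 letters and the ETS letters. Mrpl14 is at chr17:45686099-45686348 on the plus strand, Mrpl47 at chr3:32736756-32737005 on the minus strand, Mrpl23 at chr7:142532782-142533031 on the plus strand and Mrps18a at chr17:46110754-46111003 on the plus strand, all GRCm38.p6.
Mrpl14: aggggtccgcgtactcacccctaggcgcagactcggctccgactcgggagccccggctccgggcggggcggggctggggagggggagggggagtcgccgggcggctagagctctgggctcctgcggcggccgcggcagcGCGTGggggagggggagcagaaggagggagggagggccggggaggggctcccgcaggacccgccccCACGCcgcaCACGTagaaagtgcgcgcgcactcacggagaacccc
Mrpl47: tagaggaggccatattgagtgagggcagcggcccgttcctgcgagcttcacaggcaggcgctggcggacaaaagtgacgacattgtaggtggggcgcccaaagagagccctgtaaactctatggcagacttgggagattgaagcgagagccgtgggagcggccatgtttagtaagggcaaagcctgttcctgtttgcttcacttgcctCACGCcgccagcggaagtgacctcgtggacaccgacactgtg
Mrpl23: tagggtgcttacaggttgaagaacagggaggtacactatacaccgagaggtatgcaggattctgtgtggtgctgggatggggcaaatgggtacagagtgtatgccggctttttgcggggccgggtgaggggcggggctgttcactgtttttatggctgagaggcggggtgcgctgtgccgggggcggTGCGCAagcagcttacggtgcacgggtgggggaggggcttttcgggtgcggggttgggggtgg
Mrps18a: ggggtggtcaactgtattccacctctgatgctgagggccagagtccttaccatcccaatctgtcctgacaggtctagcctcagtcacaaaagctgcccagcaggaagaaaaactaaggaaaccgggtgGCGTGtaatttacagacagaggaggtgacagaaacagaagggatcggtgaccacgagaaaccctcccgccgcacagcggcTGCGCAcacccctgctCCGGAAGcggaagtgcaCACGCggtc
Mrps18a, which was chosen for such letters, held the NRF1 letters 42 bases and the ETS letters 26 bases before its start. Mrpl23 held the NRF1 letters 63 bases before its start, and Mrpl14 and Mrpl47 held neither in these 250 bases.

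Values are log2 intensities that the authors computed by RMA (robust multi-array average), so a difference of 1 is a doubling. They compare groups for 1 probe set and do not rank genes against each other. Array medians lay between 6.68 and 6.81, and arrays of 1 group correlated at r = 0.986 to 0.995. All 77 members passed the filter on low values that left 11963 genes in each test. Genes were called at an adjusted p under 0.05 (limma, Benjamini-Hochberg over all genes tested). The labels call arrays of a group biological replicates, and the muscle arrays pair 1 soleus and 1 quadriceps per label number, read here as an animal. Marker means separated the tissues: slow fibre markers averaged 13.48 to 13.56 on soleus arrays, against 7.53 to 9.51 on quadriceps arrays, and cardiomyocyte markers averaged 12.57 to 12.70 on heart arrays, against at most 8.06 on muscle arrays. Not every cardiomyocyte marker did so. Myl7 averaged 6.50 in control hearts, against 6.33 in WT soleus and 6.41 in WT quadriceps. Actc1 averaged 14.31 in control hearts, against 10.74 in WT soleus and 13.64 in WT quadriceps. The WT soleus arrays were scattered in the fast myosin Myh4, at 10.90, 13.31 and 8.99 (SD 2.16), against 12.53, 12.48 and 12.73 in KO soleus (SD 0.13). The second WT soleus array, the highest in Myh4, was also the highest of its group in adipocyte markers, at 8.42, against 7.35 and 7.22. The second WT quadriceps array stood apart in cardiomyocyte markers, with a mean of 8.06, against 7.59 and 7.59 in the other WT quadriceps arrays. Tnni3, the cardiac troponin I, read 7.94 on it, against 6.50 and 6.57, and Tnnt2, the cardiac troponin T, read 9.11, against 7.77 and 7.67. Myh6, Ryr2 and Mybpc3 were also highest of the group on this array. Actc1 was lowest of the group there, at 13.52, against 13.74 and 13.67. Myl7 was lowest as well, at 6.35, against 6.41 and 6.47, and Nppa lay between the other arrays. The second WT quadriceps array also had the highest mean of the 77 members in that group, 9.37, against 9.31 and 9.32.

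The targeted gene checks the labels. Egln1 read 11.03, 11.07 and 11.12 in KO soleus, against 11.29, 11.22 and 11.31 in WT soleus. In quadriceps it read 10.87, 10.67 and 10.92 in KO, against 10.94, 10.99 and 10.95 in WT. The KO arrays lay below the WT arrays in both muscles without overlap, but the differences were small, -0.20 (SE 0.07, adjusted p = 0.40, limma) in soleus and -0.14 (SE 0.07, adjusted p = 0.44) in quadriceps, and neither was called. Whether this probe set lies in the deleted part of the gene is not given in the sources used here, so KO and WT are the groups as labelled.

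The first question was whether loss of EglN1 in muscle changed the level of these transcripts. In neither muscle was a mitochondrial ribosomal protein gene called: 0 of 77 in soleus, where 0.184% of all genes tested were called, and 0 of 77 in quadriceps, where 0.794% were called (limma). At an unadjusted p under 0.05, 4 members lay higher and 2 lower in KO soleus, where 4.14% of all genes lay higher and 3.43% lower at that level, and 0 lay higher and 6 lower in KO quadriceps, where 4.26% and 7.93% of all genes did. The median difference over the members was -0.022 in soleus and -0.020 in quadriceps, against 0.0013 and -0.017 over all genes tested. Averaged over both muscles, again 0 members were called, with 0.911% of all genes called, and 1 member was higher and 6 were lower at the unadjusted level, against 5.12% and 7% of all genes. The mean of the 77 values per array was 9.34, 9.41 and 9.40 in KO soleus, against 9.37, 9.38 and 9.41 in WT soleus. In quadriceps this mean was 9.34, 9.30 and 9.29 in KO, against 9.31, 9.37 and 9.32 in WT. The ranges overlapped in both muscles.

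The fit also bounds what a change could have been. The 95% interval of the KO minus WT difference lay within 0.5 log2 units of 0 for all 77 members in each muscle, and within 0.3 for 69 of 77 in soleus and 72 of 77 in quadriceps. The widest bounds were -0.43 for Mrps27 and 0.49 for Mrps21 in soleus, and -0.43 for Mrpl54 and 0.40 for Mrps36 in quadriceps. Intervals are for each gene alone and cover the spread between these animals. The direction of the difference was the same in soleus and quadriceps for 47 of 77 members (61%), against 60.8% of all genes tested.

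Mrps21, a small protein of the small subunit with a bacterial counterpart, came nearest to a call. It read 11.56, 11.44 and 11.39 in KO soleus, against 11.19, 11.06 and 11.11 in WT soleus. The KO arrays were all above the WT arrays, by 0.34 (SE 0.07, adjusted p = 0.072, limma). This adjusted p fell to 0.034 with a trended, robust prior and to 0.031 with estimated array weights, and ranged up to 0.26 under the other alternatives tried. In quadriceps Mrps21 read 11.40, 11.25 and 11.39 in KO, against 11.37, 11.43 and 11.31 in WT, and the groups overlapped. The difference between the 2 KO effects was 0.37 (SE 0.09, adjusted p = 0.35), so soleus and quadriceps were not shown to differ. In that test 0 of 77 members were called, against 0.00836% of all genes, and 2 members were higher and 0 lower at an unadjusted p under 0.05, against 4.55% and 2% of all genes.

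Mrpl57, Mrpl40 and Mrps2 also had small p values in soleus, all with differences above 0. Mrpl57, a large-subunit protein with no bacterial counterpart, read 9.56, 9.56 and 9.59 in KO soleus, against 9.34, 9.39 and 9.43 in WT soleus, a difference of 0.18 (SE 0.07, adjusted p = 0.53, limma). Mrpl40, likewise without a bacterial counterpart, read 10.55, 10.57 and 10.65 in KO soleus, against 10.49, 10.40 and 10.49 in WT soleus, a difference of 0.13 (SE 0.05, adjusted p = 0.58). In both genes all KO soleus arrays lay above all WT ones. Mrps2, the counterpart of a bacterial small-subunit protein, read 9.33, 9.21 and 9.25 in KO soleus, against 9.08, 9.06 and 9.22 in WT soleus, so the groups overlapped, and differed by 0.15 (SE 0.06, adjusted p = 0.59). In quadriceps the differences of these genes were 0.0083, 0.0002 and -0.0050, and none was called. The differences between their KO effects were not called, with adjusted p = 0.79 for each (limma).

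Mrps18a, 1 of 3 mammalian relatives of a bacterial small-subunit protein, lay lower in both KO muscles. It read 10.35, 10.36 and 10.48 in KO soleus, against 10.55, 10.58 and 10.49 in WT soleus. In quadriceps it read 10.26, 10.20 and 10.21 in KO, against 10.38, 10.37 and 10.39 in WT. Neither pair of groups overlapped, yet the average difference, -0.15 (SE 0.04), had an adjusted p of 0.13 (limma) and was not called. Of its relatives, Mrps18b differed by -0.081 in soleus and -0.026 in quadriceps, and Mrps18c by 0.032 and -0.047, none called. The Mrps18a gene overlaps Rsph9 on the annotation.

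Mrps28, Mrps12 and Mrpl52 had the next smallest p values in quadriceps. Mrps28 read 9.45, 9.36 and 9.33 in KO, against 9.54, 9.51 and 9.54 in WT, a difference of -0.15 (SE 0.06, adjusted p = 0.27, limma). Mrps12, the counterpart of the bacterial protein that lines the decoding centre, read 7.28, 7.22 and 7.18 in KO, against 7.32, 7.37 and 7.35 in WT, a difference of -0.12 (SE 0.05, adjusted p = 0.33). In both genes all KO quadriceps arrays lay below all WT ones. Mrps12 lay closest of the members to the filter level, log2 6.54 in muscle, and a filter at the 60th percentile left it out. Mrpl52, which has no bacterial counterpart, read 9.32, 9.33 and 9.21 in KO, against 9.46, 9.47 and 9.39 in WT, and its adjusted p was 0.30. Mrps24 read 9.51, 9.60 and 9.54 in KO quadriceps, against 9.88, 9.63 and 9.70 in WT quadriceps, a difference of -0.19 (SE 0.08, adjusted p = 0.35) without overlap. Averaged over both muscles, Mrpl46, a large-subunit protein, differed by -0.12 (SE 0.05, adjusted p = 0.34). Over the list, KO and WT arrays did not overlap for 6 of 77 members in soleus and 11 of 77 in quadriceps, against 12.7% and 17.1% of all genes tested.

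Other members named for their known roles showed KO minus WT differences of like or smaller size. In soleus these were -0.030 for Mrpl10 and -0.11 for Mrpl12, proteins of the stalk that binds translation factors, -0.034 for Mrpl44, which carries a ribonuclease-like fold, and -0.076 for Mrpl45, which lies at the membrane side of the exit tunnel. For Mrps22 and Mrps34, genes whose loss in patients impairs the small subunit, the differences in soleus were 0.054 and -0.0014. For Mrpl11, Mrpl41 and Mrps36 they were -0.083, -0.025 and -0.013 in soleus and -0.091, -0.085 and 0.16 in quadriceps. A second probe set of Mrpl41 gave 0.039 in soleus and 0.037 in quadriceps. In quadriceps the differences were -0.044 for Mrpl10, -0.090 for Mrpl12, -0.089 for Mrpl44, -0.065 for Mrpl45, -0.031 for Mrps22 and -0.020 for Mrps34. None of these was called in either muscle.

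**Figure D1:**
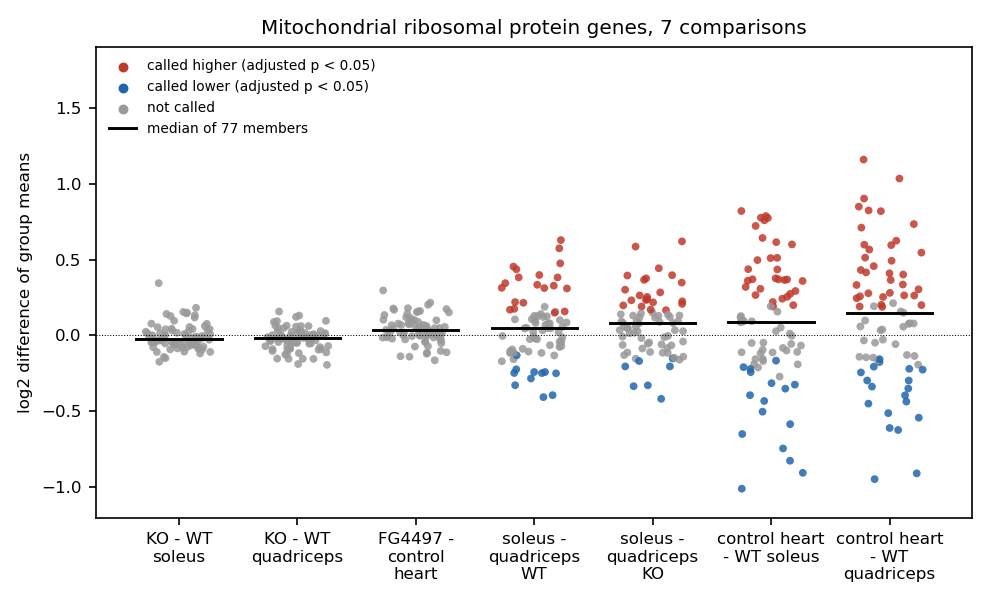
Log2 differences of the 77 members (vertical axis, log2 units) in 7 comparisons (horizontal axis); each point is 1 gene, red and blue points are called higher or lower in the group named first, grey points are not called, and the black line is the median. The KO minus WT and FG4497 minus control columns hold no called member, whereas the comparisons between tissues hold 29 to 54.

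The second question was whether FG-4497 changed these transcripts in the heart. No member was called (0 of 77, limma), where 2.23% of all genes tested were called, and 2 members lay higher and 0 lower at an unadjusted p under 0.05, against 6.37% and 4.89% of all genes. The median difference was 0.036 over the members and -0.0005 over all genes. The mean over the members was 9.50, 9.46 and 9.51 in FG4497 hearts, against 9.48, 9.41 and 9.47 in control hearts, and these ranges overlapped. Precision was lower than in muscle. The 95% interval lay within 0.5 of 0 for 74 of 77 members and within 0.3 for 52. Bounds ran from -0.38 for Mrpl41 to 0.65 for Mrpl20. The probe set used for Mrpl41 differed by -0.11, and its second probe set by 0.14.

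Mrps18a again had the smallest p, here with a difference above 0. It read 10.45, 10.43 and 10.44 in FG4497 hearts, against 10.15, 10.18 and 10.35 in control hearts. All treated hearts lay above all control hearts, by 0.22 (SE 0.08, adjusted p = 0.29, limma). Mrpl45 read 9.19, 9.13 and 9.28 in FG4497 hearts, against 8.99, 8.90 and 9.10 in control hearts, also without overlap (0.20, SE 0.08, adjusted p = 0.38). Mrpl58, a peptidyl-tRNA hydrolase that rescues stalled ribosomes, read 9.58, 9.46 and 9.56 in FG4497 hearts, against 9.66, 9.76 and 9.66 in controls, a difference of -0.16 (SE 0.08, adjusted p = 0.49). Mrpl13 and Mrpl17, both with bacterial counterparts, lay higher in all FG4497 hearts than in all control hearts. Mrpl13 read 9.09 to 9.22 in FG4497 hearts, against 8.95 to 9.07 in control hearts (0.16, SE 0.08, adjusted p = 0.53). Mrpl17 read 8.89 to 9.10 in FG4497 hearts, against 8.73 to 8.88 in control hearts (0.17, SE 0.09, adjusted p = 0.55). FG4497 and control hearts did not overlap for 7 of 77 members, against 15.9% of all genes. The 2 erythroid markers measured averaged 8.49, 8.90 and 8.63 in FG4497 hearts, against 7.85, 8.18 and 7.92 in control hearts, and their part in these values was not tested.

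**Figure D2:**
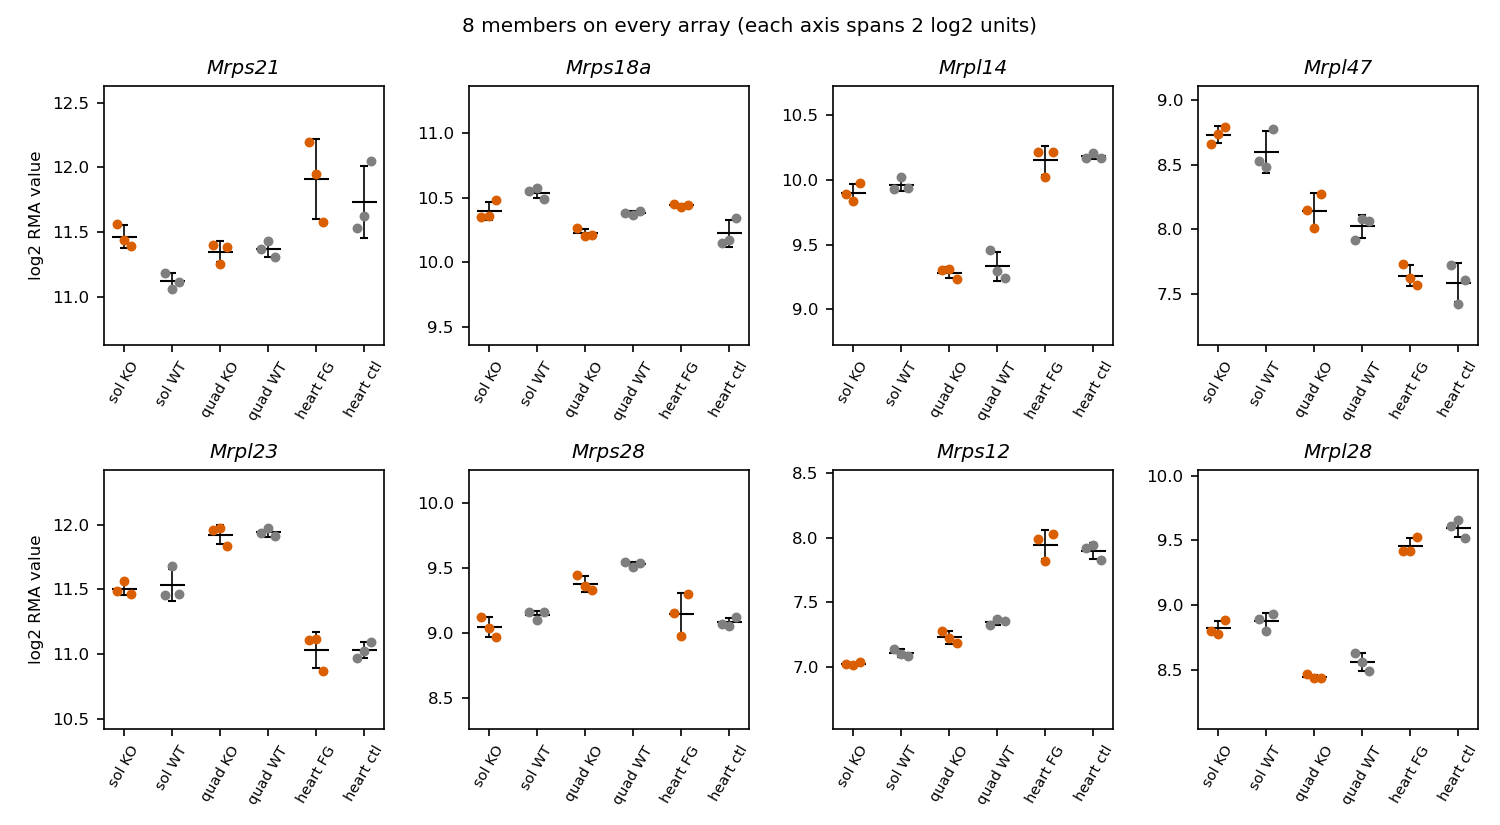
Log2 RMA value (vertical axis, 2 log2 units in every panel) of 8 members on each of the 18 arrays, by group (horizontal axis: soleus KO and WT, quadriceps KO and WT, heart FG4497 and control); points are arrays, the horizontal mark is the group mean and the bar 1 SD (n = 3). Mrps21 shows the 3 KO soleus arrays, 11.39 to 11.56, above the WT soleus arrays, 11.06 to 11.19. Mrps18a shows KO below WT arrays in both muscles and FG4497 above control hearts, and none of these differences was called. The panels of the other genes show steps between tissues.

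The muscles themselves differed for many members, and in both directions. In WT mice 20 of 77 members were called higher and 11 lower in soleus than in quadriceps, together 40.3%, where 49.7% of all genes tested were called (23% higher and 26.7% lower). The same comparison in the KO mice, which are other animals, called 22 higher and 7 lower, together 37.7%, against 45.7% of all genes (23.7% higher and 22% lower). The combined shares lay below those of all genes tested in both genotypes. By direction, the share called higher lay slightly above that of all genes, and the share called lower lay below it. Whether this split differs from that of all genes was not tested. The median difference was 0.049 in WT and 0.08 in KO mice, against -0.012 and 0.0083 over all genes tested. Large-subunit symbols gave 12 higher and 6 lower of 48 in WT mice, and small-subunit symbols 8 higher and 5 lower of 29.

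Mrpl14, a protein of the subunit interface, had the largest excess in soleus. It read 9.93, 10.02 and 9.93 in WT soleus, against 9.46, 9.30 and 9.24 in WT quadriceps. In KO mice it read 9.89, 9.84 and 9.98 in soleus, against 9.30, 9.31 and 9.23 in quadriceps. Every soleus array lay above every quadriceps array, and Mrpl14 rose by 0.63 in WT (SE 0.06, adjusted p = 2.0e-06, limma) and by 0.62 in KO mice (SE 0.06, adjusted p = 2.7e-06), which is a 1.55-fold level in WT. The gene overlaps Tmem63b on the annotation, and its array reading was not separated from that neighbour.

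Mrpl47 lies near the exit of the tunnel through which new proteins leave the ribosome. It read 8.53, 8.48 and 8.78 in WT soleus, against 7.92, 8.08 and 8.07 in WT quadriceps. In KO mice it read 8.66, 8.74 and 8.79 in soleus, against 8.15, 8.01 and 8.27 in quadriceps. It rose in soleus in both genotypes, by 0.57 (SE 0.08, adjusted p = 5.6e-05, limma) in WT and 0.59 (SE 0.08, adjusted p = 5.6e-05) in KO mice. A dimmer probe set of Mrpl47 gave 0.29 and 0.36.

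Further members that rose in soleus of both genotypes included Mrps35 (0.45 in WT and 0.40 in KO mice), Mrpl18 (0.47 and 0.35), Mrps9 (0.44 and 0.37), Mrpl41 (0.38 and 0.44), Mrpl3 (0.40 and 0.28), Mrpl39 (0.38 and 0.26), Mrps33 (0.33 and 0.39) and Mrpl28 (0.31 and 0.38). Mrpl3, Mrpl18, Mrpl28 and Mrps9 have bacterial counterparts, and Mrps35, Mrpl39 and Mrpl41 do not. Mrps35 read 9.07, 8.88 and 9.04 in WT soleus, against 8.55, 8.53 and 8.54 in WT quadriceps. Mrpl18 read 10.41, 10.34 and 10.49 in WT soleus, against 9.88, 10.02 and 9.91 in WT quadriceps. In both genes the muscles did not overlap. Mrpl18 overlaps Tcp1 on the annotation.

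Mrpl23, which sits at the tunnel exit beside the site where the ribosome meets the membrane insertion machinery, had the largest deficit in soleus. It read 11.46, 11.68 and 11.47 in WT soleus, against 11.94, 11.98 and 11.91 in WT quadriceps. In KO mice it read 11.49, 11.57 and 11.47 in soleus, against 11.96, 11.98 and 11.84 in quadriceps. It fell in soleus by 0.41 in WT (SE 0.06, adjusted p = 0.00013, limma) and by 0.42 in KO mice (SE 0.06, adjusted p = 0.00012), and a second probe set gave -0.41 and -0.42.

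Mrps28, a small-subunit protein, read 9.16, 9.10 and 9.16 in WT soleus, against 9.54, 9.51 and 9.54 in WT quadriceps, and fell by 0.39 (SE 0.05, adjusted p = 2.8e-05, limma). In KO mice it fell by 0.33 (SE 0.05, adjusted p = 0.00013). Mrpl13 fell by 0.25 in WT and 0.33 in KO mice, Mrps12 by 0.24 and 0.20, Mrps34 by 0.22 and 0.20, and Mrpl52 by 0.24 and 0.15. With Mrpl23, these were the 6 members called lower in both genotypes. Mrpl52 in KO mice kept its call in 8 of 16 alternatives, and Mrps34 in 13 of 16.

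Between the genotypes, 18 members (23.4%) were called higher in both and 6 (7.79%) lower in both, against 19.1% and 19.9% of all genes tested, and 0 were called in opposite directions. A call in WT mice alone was made for 2 members that were higher and 5 that were lower, a call in KO mice alone for 4 that were higher and 1 that was lower, and 41 were called in neither. The shared calls were 82.8% of the KO calls and 77.4% of the WT calls, against 85.4% and 78.5% over all genes tested. The differences had the same sign for 68 of 77 members (88.3%), against 85.3% of all genes tested, and correlated at r = 0.90 (Spearman rho 0.88) across the 77 genes, and at r = 0.97 across all genes tested; genes are not independent replicates. Mrps21 and Mrpl22 were called lower in soleus in WT mice, at -0.25 and -0.28, while their differences in KO mice were 0.12 and -0.01 and not called. The interaction was not called for either, with adjusted p = 0.35 for Mrps21 and 0.75 for Mrpl22 (limma). Mrps24 and Mrpl42 were also called lower in WT mice alone, at -0.33 and -0.25, against differences of -0.15 and -0.16 in KO mice, and Mrpl50 in KO mice alone, at -0.17, against -0.13 in WT mice. The interaction had an adjusted p of 0.81 for Mrps24, 0.94 for Mrpl42 and 0.98 for Mrpl50. For Mrps30 the difference between the KO effects was -0.21 (SE 0.10, adjusted p = 0.76).

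**Figure D3:**
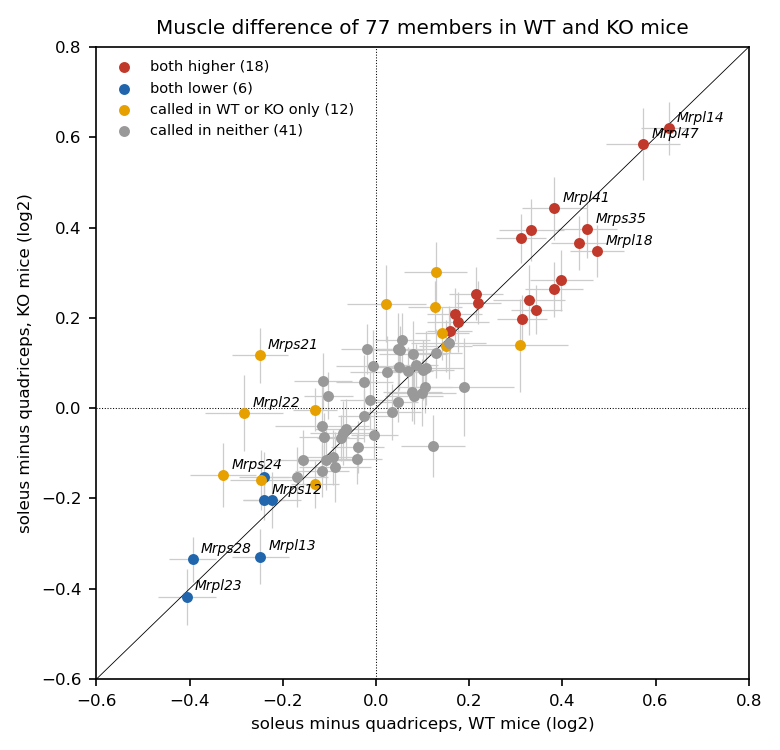
Soleus minus quadriceps difference (log2) of each of the 77 members in WT mice (horizontal) and KO mice (vertical), with bars of 1 standard error; colours give the calls and the thin diagonal marks equal differences. Mrpl14 and Mrpl47 lie at the upper right and Mrpl23 and Mrps28 at the lower left in both genotypes, and Mrps21 lies off the diagonal.

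Other marker groups also moved between the muscles. Endothelial markers, 6 of 6 of them called higher in soleus in each genotype, averaged 9.30 to 9.61 on soleus arrays, against 8.60 to 8.85 on quadriceps arrays, and smooth muscle and pericyte markers, 5 of 5 called higher, averaged 9.44 to 9.68, against 8.89 to 9.13. The part of fibre type and of other cells in the differences above was not tested. In bulk tissue, more cells of a type and more RNA per cell cannot be told apart. Leaving out the second WT soleus array gave 17 members higher and 11 lower in WT mice, and leaving out the second WT quadriceps array gave 20 and 9. The share of all genes called was not computed for these fits.

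The other genes that the mitochondrial ribosome works with were read from the same table. Of all genes tested, 23% were called higher and 26.7% lower in soleus in WT mice, and 23.7% and 22% in KO mice. Of 78 nuclear genes of the respiratory chain and ATP synthase tested, 56 were called higher and 2 lower in WT soleus than in WT quadriceps, with a median of 0.23, and in KO mice 53 were higher and 1 lower, with a median of 0.21. Ndufb3, a subunit of complex I, rose by 1.20 in WT and 1.12 in KO mice, and Cox8a, a subunit of cytochrome oxidase, by 0.76 and 0.69. The mean over this list was 11.54, 11.53 and 11.55 in WT soleus, against 11.29, 11.31 and 11.28 in WT quadriceps. The mean of the 77 ribosomal members lay at 9.37 to 9.41 in WT soleus, against 9.31 to 9.37 in WT quadriceps. In both lists the mean of every WT soleus array lay above that of every WT quadriceps array. The medians of the ribosomal members per array overlapped, at 9.31, 9.28 and 9.28 in WT soleus, against 9.25, 9.34 and 9.27 in WT quadriceps. The group means were 11.54 in WT soleus and 11.30 in WT quadriceps for the respiratory chain and 9.39 and 9.33 for the ribosomal members, whose lowest soleus array lay just above the highest quadriceps array. In KO mice the ribosomal means of soleus and quadriceps overlapped, and the lists were not tested against each other.

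Among mitochondrial translation factors, 8 of 15 were called higher and 1 lower in soleus, in WT and in KO mice alike. Together these were 60% in each genotype, where 49.7% of all genes tested were called in WT and 45.7% in KO mice. Lrpprc, which stabilises mitochondrial messenger RNA, rose by 0.62 in WT and 0.50 in KO mice, Oxa1l, which inserts new proteins into the inner membrane, by 0.49 and 0.42, and Guf1, an elongation factor relative, by 0.41 and 0.36. Of 27 genes for ribosome assembly and ribosomal RNA modification, 7 were higher and 8 lower in WT soleus, and 7 higher and 4 lower in KO soleus. Together these were 55.6% and 40.7%. Mettl15, a methyltransferase of the small-subunit RNA, rose by 0.67 in WT and 0.64 in KO mice, whereas Malsu1, an assembly factor that binds the product of Mrpl14 on the large subunit, fell by 0.58 and 0.53.

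Mitochondrial aminoacyl-tRNA synthetases gave 4 higher and 5 lower of 18 in WT mice and 3 higher and 3 lower in KO mice. These were 50% and 33.3% of the list, where 49.7% and 45.7% of all genes tested were called. Genes for maintenance and transcription of mitochondrial DNA were mostly lower in soleus. The calls were 1 higher and 7 lower of 11 in WT, and 1 higher and 8 lower in KO mice, together 72.7% and 81.8%. Tfam, which packages mitochondrial DNA and starts its transcription, fell by 0.69 in WT and 0.51 in KO mice, and Mgme1, a mitochondrial exonuclease, by 0.48 and 0.47. Among 10 regulators, 5 were called higher and 3 lower in WT soleus, and 4 higher and 2 lower in KO soleus, together 80% and 60%. Ppargc1a, a coactivator of mitochondrial genes, read 11.76, 11.60 and 11.57 in WT soleus, against 10.61, 10.41 and 10.33 in WT quadriceps. It rose by 1.19. In KO mice it rose by 0.99. Yy1, the factor of the ATGGCGG motif, fell by 0.25 and 0.24. Of the other motif factors, Gabpa averaged 9.13 in WT soleus, against 8.93 in WT quadriceps, and Nrf1 7.92, against 7.79. In KO mice Gabpa averaged 9.15, against 8.96, and Nrf1 7.85, against 7.83. Myc averaged 7.27 in WT soleus, against 7.97 in WT quadriceps, and Ppargc1b 8.80, against 8.51. In KO mice these were 7.63, against 8.28, and 8.71, against 8.39. Cytosolic ribosomal proteins gave 2 higher and 18 lower of 60 in WT mice and the same counts in KO mice, together 33.3% in each.

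Of the mitochondrial ribosomal proteins whose symbols fall outside the rule, 4 were measured. Ptcd3 rose in soleus by 0.38 in WT and 0.22 in KO mice, Chchd1 fell by 0.29 and 0.24, and Dap3 and Gadd45gip1 were called in neither. In the KO minus WT and FG4497 minus control comparisons 0 genes were called in any of these mitochondrial lists or among the cytosolic ribosomal proteins (limma). At an unadjusted p under 0.05, the respiratory chain list gave 1 higher and 2 lower of 78 in KO soleus, 2 higher and 0 lower in KO quadriceps, and 0 of 79 in FG4497 hearts. Each of the other lists held at most 3 such genes in each of these 3 comparisons.

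The control hearts were set against the WT muscles to order the levels of each gene between tissues. The hearts belong to another experiment, so tissue and experiment cannot be told apart, and both comparisons use the same control hearts. Against WT soleus 31 of 77 members were called higher and 16 lower in heart, where 60.1% of all genes tested were called (30.3% higher and 29.8% lower). Against WT quadriceps 35 were higher and 19 lower, where 66.9% were called (32.7% higher and 34.2% lower). The medians were 0.087 and 0.15, against 0.019 and 0.0071 over all genes. Without the second WT quadriceps array, 33 were higher and 16 lower against quadriceps, and the share of all genes called was not computed for that fit.

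Markers of other cells differed between heart and muscle as well. Endothelial markers averaged 10.40 to 10.48 in control hearts, against 9.30 to 9.61 in WT soleus and 8.62 to 8.79 in WT quadriceps, and 6 of 6 were called higher in heart against each muscle. Adipocyte markers averaged 6.39 to 6.58 in control hearts, against 7.22 to 8.42 in WT soleus and 7.04 to 7.73 in WT quadriceps, and 3 of 3 tested were called lower against each. Macrophage and leukocyte markers averaged 7.60 to 7.68 in control hearts, against 7.15 to 7.20 in WT soleus and 7.11 to 7.35 in WT quadriceps, with 3 of 4 called higher against soleus and 2 of 4 against quadriceps. Fibroblast markers averaged 9.73 to 9.77 in control hearts, against 10.17 to 10.39 in WT soleus and 10.19 to 10.51 in WT quadriceps, with 2 and 3 of 5 called lower. Smooth muscle and pericyte markers averaged 9.50 to 9.65 in control hearts, against 9.44 to 9.68 in WT soleus and 8.89 to 8.96 in WT quadriceps. The part of these cells in the members' differences was not tested.

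Mrpl41 and Mrpl28 are large-subunit proteins with a clear order of levels. Mrpl28 read 9.61, 9.65 and 9.52 in control hearts, against 8.89, 8.80 and 8.93 in WT soleus and 8.63, 8.56 and 8.49 in WT quadriceps. It rose in heart by 0.72 over soleus (SE 0.06, adjusted p = 1.8e-08, limma) and by 1.03 over quadriceps (SE 0.06, adjusted p = 7.4e-11), and soleus exceeded quadriceps by 0.31. Mrpl41 read 9.11, 8.72 and 8.88 in control hearts, against 8.04, 8.15 and 8.19 in WT soleus and 7.81, 7.88 and 7.55 in WT quadriceps, so heart was highest and quadriceps lowest. Its rise over quadriceps, 1.16 (SE 0.10), was the largest of the 77. A second Mrpl41 probe set gave 0.68.

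Mrps12 and Mrps24, the counterparts of bacterial small-subunit proteins at the decoding centre and the mRNA entry, followed another order. Mrps12 read 7.92, 7.94 and 7.82 in control hearts, against 7.14, 7.10 and 7.08 in WT soleus and 7.32, 7.37 and 7.35 in WT quadriceps. Mrps24 read 10.24, 10.25 and 10.19 in control hearts, against 9.34, 9.57 and 9.32 in WT soleus and 9.88, 9.63 and 9.70 in WT quadriceps. For both, heart was highest and soleus lowest. Mrps12 rose in heart by 0.79 over soleus and 0.55 over quadriceps, and Mrps24 by 0.82 and 0.49. Mrpl52 rose by 0.64 over soleus and 0.40 over quadriceps, and Mrps21 by 0.61 and 0.37.

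Mrpl55 and Mrpl34 rose in heart over both muscles by similar sizes, Mrpl55 by 0.77 over soleus and 0.90 over quadriceps and Mrpl34 by 0.76 and 0.73. Over quadriceps, Mrpl14 rose by 0.85, Mrps35 by 0.82, Mrpl39 by 0.82 and Mrps9 by 0.71. Mrpl34 read 11.14, 11.10 and 11.13 in control hearts, against 10.29, 10.30 and 10.50 in WT soleus and 10.34, 10.39 and 10.43 in WT quadriceps. The muscles overlapped each other in Mrpl34, and soleus differed from quadriceps by -0.025 (adjusted p = 0.77, limma), which was not called.

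Other members were lowest in heart. Mrpl15, a large-subunit protein with a bacterial counterpart, read 9.48, 9.22 and 9.46 in control hearts, against 10.24, 10.29 and 10.34 in WT soleus and 10.31, 10.42 and 10.28 in WT quadriceps. It fell by 0.90 (SE 0.07, adjusted p = 4.8e-09, limma) against soleus and 0.95 (SE 0.07, adjusted p = 1.5e-09) against quadriceps, and the difference of soleus from quadriceps was -0.04 (adjusted p = 0.57) and not called. Mrpl23 read 10.97, 11.03 and 11.10 in control hearts and so lay below both muscles, by 0.50 against soleus and 0.91 against quadriceps in the fit; it was highest in quadriceps. Mrps5 fell in heart by 0.83 against soleus and 0.51 against quadriceps, Mrps30 by 0.74 and 0.62, Mrpl48 by 0.65 and 0.54, and Mrpl11, a protein of the factor-binding region, by 0.58 and 0.61. Mrps18b fell by 0.43 against soleus. Mrps28 fell by 0.45 against quadriceps, but its heart and soleus arrays overlapped. It read 9.07, 9.06 and 9.12 in control hearts, against 9.16, 9.10 and 9.16 in WT soleus.

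Mrpl47 depended on the probe set. Its brighter probe set read 7.72, 7.42 and 7.61 in control hearts and fell by 1.01 against WT soleus and 0.44 against WT quadriceps. Its dimmer probe set gave 0.09 and 0.38, with no deficit in heart. With the mean of both probe sets the difference against quadriceps was -0.03 (adjusted p = 0.73, limma), so no direction is given for Mrpl47 in heart. In the other members with several probe sets, the sign of the heart difference from each muscle was the same between the probe sets of Mrpl23, Mrpl41, Mrps5, Mrps33 and Mrps36. Mrps36 had differences of -0.21 against soleus and 0.10 against quadriceps in the probe set used and -0.19 and 0.15 in the other. In Mrpl27 the probe set used gave -0.09 against soleus and -0.05 against quadriceps and the other -0.09 and 0.14, and in Mrpl51 these were 0.01 and -0.03, and 0.20 and 0.16, so the probe sets of both had the same sign against soleus and opposite signs against quadriceps.

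**Figure D4:**
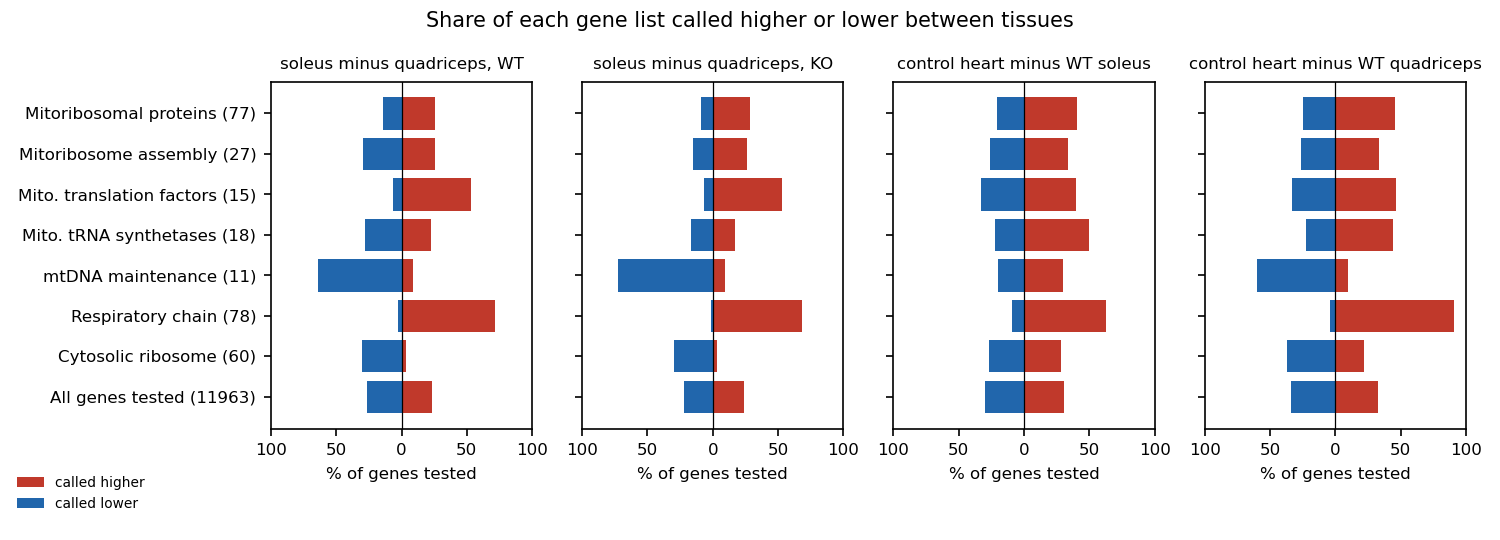
Share of the genes tested (horizontal axis, percent) that were called higher (red, right) or lower (blue, left) in the tissue named first, for 7 gene lists and all genes tested, with the number tested in the muscle fit in parentheses. The mitochondrial ribosomal proteins show calls on both sides in every panel, whereas the respiratory chain list is called mostly higher, 56 of 78 in soleus over quadriceps in WT mice and 71 of 78 in heart over quadriceps.

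In heart the respiratory chain list had 49 higher and 7 lower of 78 against WT soleus and 71 higher and 3 lower against WT quadriceps. Of all genes tested, 30.3% were higher and 29.8% lower against soleus, and 32.7% and 34.2% against quadriceps. The mean of the respiratory chain list was 11.84, 11.84 and 11.88 in control hearts. Within groups the median SD of the members over the 3 arrays was 0.065 to 0.091. Over all genes tested in the muscle fit it was 0.0755 to 0.1026. The widest SD of a member was 0.32 for Mrps30 in control hearts. The members lie on 17 chromosomes, with 11 of them on chromosome 11, and 2, Mrpl34 and Mrps31, on chromosome 8 with Egln1, at 53.4 and 102 Mb from it. Of the 77 genes, 19 overlap another protein-coding gene on the annotation.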

How the data were processed

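RNA of mouse soleus, quadriceps and heart was hybridised to 18 Affymetrix arrays, and per the submitters' processing notes the deposited values are log2 intensities that the authors computed with RMA. That method subtracts background, normalizes quantiles between arrays and summarises probes. Which arrays were normalized as 1 set, and the software version, is not given in the sources used here. These steps force arrays to a common distribution, so a shift of all genes would be hidden. Of 35556 probe sets, 21789 name 1 gene, 1621 name several and 12146 are not listed with a gene in the platform annotation. Symbols were updated by gene identifier for 21698, and all 77 members matched. The 77 members have 85 probe sets, and 8 have several.

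Each gene was represented by its brightest probe set over all arrays. Genes below the 40th percentile of gene means were left out, at log2 6.54 in muscle, 6.61 in heart and 6.58 over all arrays, which left 11963 genes per fit. Tests used limma 3.58.1 in R 4.3.3: 1 fit over 12 muscle arrays with animal as a random block (consensus correlation 0.18), 1 over 6 hearts, and 1 over all 18 arrays (0.21). The fits were also run on simulated arrays. The planted changes were larger than any member's KO minus WT or FG4497 minus control difference, so power at those sizes was not tested. Precision is limited by the 3 arrays in each group. The deviations of the 2 arrays of an animal correlated at r = 0.0022 to 0.39, with 4 of 6 animals above 0.1, and the labels do not state that the numbers are animals.

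The named members were, per comparison, up to 8 called members with the largest rise and up to 8 with the largest fall, or the 5 with the smallest p where fewer than 5 were called, and members of known role. From each other list, up to 4 called genes were named. Outside this rule, and after their values were seen, were named Mrps27, Mrpl54 and Mrpl20 for the widest intervals, Mrps30 for its spread, Mrpl27, Mrpl51, Mrps33 and Mrps36 for their probe sets, Mrpl34 and Mrps31 for their chromosome, and the values of a named member in the other genotype or muscle, such as Mrpl28 and Mrps33 in WT mice, Mrpl3 and Mrpl39 in KO mice and Mrps12 and Mrps24 in heart over quadriceps. Nrf1 and Gabpa were also named outside this rule, as factors of the searched motifs. The members and lists were chosen with earlier results of these data known. Alternatives changed the filter, normalization, probe set, prior, weights, block and arrays.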

Additional observations from a re-analysis of the deposited data

How the results depend on the processing

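Every comparison was recomputed under 14 to 22 alternatives. The count of called members stayed at 0 throughout for KO minus WT in quadriceps, for the average and the difference of the KO effects, and for FG4497 minus control. In soleus, KO minus WT called 1 member, Mrps21, with a trended, robust prior and 1 with estimated array weights, against 0 otherwise. Soleus minus quadriceps called 25 to 39 members in WT and 21 to 33 in KO mice, and heart called 43 to 51 against soleus and 48 to 55 against quadriceps. With no replicate block, WT mice gave 28 calls and KO mice 25. With a replicate block by animal as a fixed term they gave 29 and 26, and by title number 27 and 27; blocks changed no other count by over 1.5 times. With quantile normalization repeated, the splits of higher and lower were 25 and 10 in WT mice, 25 and 8 in KO mice, 37 and 14 for heart minus soleus and 39 and 14 for heart minus quadriceps. The share of all genes called was not computed under the alternatives. A changed count of members therefore cannot be told apart from a change over all genes.

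Several medians over the members moved by more than the spread. The median for the difference of the KO effects was -0.0217 with array weights and -0.0052 to 0.0471 with 1 array left out, against 0.0128. For soleus minus quadriceps in WT mice it was 0.0805 with normalization repeated, against 0.0489, and in KO mice 0.0426 (without the second KO soleus) to 0.093 with 1 array left out, against 0.0795. For heart minus soleus it was 0.1216 with normalization repeated and 0.0338 to 0.1088 with 1 array left out, against 0.0869; the values without the first control heart (0.0338), the second WT soleus (0.039) and the first WT soleus (0.0407) were less than the others. For heart minus quadriceps it was 0.0982 with the filter at the 60th percentile, where 75 members were tested, and 0.1952 with normalization repeated, against 0.1498. The causes were not tested, except that the stricter filter tests fewer genes. The filter over all probe sets was chosen after the data were seen.

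Of 63 named results that were called, 58 kept their call in every alternative that tested the gene and none changed direction. The others were Mrpl22 in WT mice, Mrps34, Mrpl50 and Mrpl52 in KO mice, and Mrpl47 in heart minus quadriceps.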
